A study of Homo sapiens with 60 samples.

Results

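The water extract of Liriopis seu Ophiopogonis Tuber, the swollen root of Liriope or Ophiopogon plants used in East Asian medicine, was compared with the DMSO vehicle in HepG2 cells by RNA-seq. The Liriopis group comprised the 9 libraries, of 60 in the series, that the labels give to this extract: 3 at 20 (low dose), 3 at 100 (medium dose) and 3 at 500 µg/mL (high dose). Pooling was over dose only, and each gene was then examined for a change with dose. The vehicle group had 3 libraries. All cells were collected after 24 h, and the labels give 0.1% DMSO for the vehicle whereas the design text of the series gives 2%, so its level is uncertain. A second set of comparisons used the 45 libraries of the other 5 water extracts (Schisandrae, Longan, Zizyphi, Polygalae and Aucklandiae), 3 libraries for each of 3 doses: 20, 100 and 500 µg/mL, except 18, 90 and 450 µg/mL for Polygalae. All groups were kept in DMEM with serum, and all titles name batch A.

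HepG2 is an established human liver cancer line, a single tumour-derived population without the other cell types of liver. The tubers are known for steroidal saponins such as ophiopogonins, for homoisoflavonoids and for fructans. Hepatocytes set glucose use by the amount of fructose 2,6-bisphosphate, which drives the committed step of glycolysis, and low oxygen raises glycolytic and histone demethylase genes through hypoxia-inducible factors. Plant constituents are often met in liver cells by NRF2, which turns on antioxidant and detoxifying enzymes, by the aryl hydrocarbon receptor, which turns on CYP1A1, and by metallothioneins, which bind zinc and other metals.

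Total counts were 21.38 to 32.81 M in the Liriopis libraries and 21.57 to 27.05 M in the vehicle libraries. The 10 hepatocyte markers were all detected, and their summed level was 43830 to 50160 CPM (read counts scaled to library depth) in Liriopis libraries and 45770 to 49690 CPM in vehicle libraries. Among markers of other cell types, COL1A2 and DCN of fibroblasts, KDR, TEK, EMCN and ERG of endothelium and PTPRC and CD3E of leukocytes were under 0.05 CPM. Others were detected: ACTA2 (58.8 ± 3.18 CPM in Liriopis and 55.05 ± 3.16 CPM in vehicle libraries) and PDGFRB (11.7 ± 1.13 and 11.4 ± 1.98 CPM) of fibroblasts, PECAM1 of endothelium (3.69 ± 0.213 and 3.94 ± 0.131 CPM) and CD68 (43.4 ± 5.03 and 47.2 ± 1.99 CPM) and CD14 (2.05 ± 0.374 and 2.12 ± 0.201 CPM) of leukocytes (SD, n = 9 and n = 3). Their part in the results was not tested. The fibroblast sum was 66.5 to 78.0 CPM in Liriopis libraries and 63.7 to 71.1 CPM in vehicle libraries, and the endothelial sum 4.77 to 5.90 and 5.46 to 5.94 CPM. LYZ, at a mean of 967 CPM in Liriopis libraries, made up nearly all of the leukocyte sum of 962 to 1064 CPM in Liriopis libraries and 981 to 1022 CPM in vehicle libraries. A pair of libraries stood apart in how their log2 values sloped with gene GC content, low-dose Liriopis replicate 1 (−0.161 per 10 percentage points of GC) and vehicle replicate 1 (−0.124), against a median of 0.0163 over the 9 Liriopis libraries. Sample codes put the Liriopis libraries in 1 set and the vehicle in another, without saying what the sets mean, so the extract and the code set cannot be told apart in comparisons with the vehicle. The 3 Liriopis doses share their set with the 9 Schisandrae libraries, whereas the 36 other libraries of the other extracts lie in other sets, so in most of that comparison too the extract and the code set cannot be told apart.

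The sequences shown first are the promoter windows of 4 called genes that act in the glycolytic or hypoxia programmes, PFKFB3, PFKFB4, PDK1 and KDM3A. The genes were chosen by this function and not by rank. KDM3A had the smallest p and PFKFB3 the largest rise, whereas PDK1 led by neither. The windows run from 250 bases before to 50 bases after a transcription start and were taken from RefSeq (GRCh38.p14). Capitals mark each ACGTG or GCGTG on either strand, the core letters of hypoxia response elements. RefSeq gives PFKFB3, PDK1 and KDM3A 2 starts each; the second KDM3A window overlaps the one printed and holds the same match.
PFKFB3 upstream start (chr10:6144671-6144970, plus strand): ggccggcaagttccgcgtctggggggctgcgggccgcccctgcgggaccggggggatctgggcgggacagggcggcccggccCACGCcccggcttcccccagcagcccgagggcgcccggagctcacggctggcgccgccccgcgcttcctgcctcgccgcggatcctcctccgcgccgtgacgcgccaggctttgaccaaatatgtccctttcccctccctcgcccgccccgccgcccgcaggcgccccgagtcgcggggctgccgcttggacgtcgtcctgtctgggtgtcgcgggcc
PFKFB3 downstream start (chr10:6202682-6202981, plus strand): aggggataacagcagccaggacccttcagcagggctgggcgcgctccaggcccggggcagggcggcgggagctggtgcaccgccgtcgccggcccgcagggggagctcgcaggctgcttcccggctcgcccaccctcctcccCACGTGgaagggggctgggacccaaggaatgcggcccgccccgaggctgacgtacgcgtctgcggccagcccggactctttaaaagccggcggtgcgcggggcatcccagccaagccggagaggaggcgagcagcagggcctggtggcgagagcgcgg
PFKFB4 (chr3:48556754-48557053, minus strand): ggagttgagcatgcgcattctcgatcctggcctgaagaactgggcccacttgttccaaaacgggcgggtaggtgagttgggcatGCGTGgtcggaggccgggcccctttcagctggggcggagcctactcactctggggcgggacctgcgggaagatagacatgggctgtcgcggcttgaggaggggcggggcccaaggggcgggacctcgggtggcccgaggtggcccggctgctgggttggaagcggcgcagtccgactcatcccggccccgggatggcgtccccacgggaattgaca
PDK1 upstream start (chr2:172555123-172555422, plus strand): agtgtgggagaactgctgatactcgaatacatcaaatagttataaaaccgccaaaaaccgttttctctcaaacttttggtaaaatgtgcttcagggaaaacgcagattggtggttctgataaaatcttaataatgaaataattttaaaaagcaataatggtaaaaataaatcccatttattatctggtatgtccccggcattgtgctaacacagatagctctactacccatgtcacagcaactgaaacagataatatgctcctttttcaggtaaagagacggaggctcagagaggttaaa
PDK1 downstream start (chr2:172555840-172556139, plus strand): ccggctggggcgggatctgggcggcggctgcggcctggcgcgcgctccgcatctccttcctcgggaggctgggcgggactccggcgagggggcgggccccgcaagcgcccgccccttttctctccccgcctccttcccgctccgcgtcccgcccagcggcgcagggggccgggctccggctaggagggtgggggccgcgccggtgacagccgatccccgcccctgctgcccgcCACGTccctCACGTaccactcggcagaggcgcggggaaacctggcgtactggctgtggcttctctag
KDM3A upstream start (chr2:86441121-86441420, plus strand): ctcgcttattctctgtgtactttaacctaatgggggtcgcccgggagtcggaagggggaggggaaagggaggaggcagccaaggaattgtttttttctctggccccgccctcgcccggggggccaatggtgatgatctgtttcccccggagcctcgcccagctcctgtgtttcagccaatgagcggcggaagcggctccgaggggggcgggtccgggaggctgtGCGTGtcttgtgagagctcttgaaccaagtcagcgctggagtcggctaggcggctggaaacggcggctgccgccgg
At least 1 match lay in every one of these windows except that of the PDK1 upstream start. The ACGTG in the downstream PFKFB3 window is part of CACGTG, an E-box, and is read on both strands. Matches are common: 48.4% of 35116 RefSeq promoter windows hold one. They are a description of the letters and no measure of binding.

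Few genes passed the test of Liriopis-treated against vehicle cells, and none of those with at least 5 CPM reached 2-fold. The regulators of glycolysis PFKFB3 and PFKFB4, the mitochondrial kinase PDK1 and the histone demethylases KDM3A and KDM4B were higher in Liriopis-treated cells. The transcription factor RFX7, the endosomal sorting protein STAM, the p53-binding protein PPP1R13B and the calcium sensor STIM2 were lower. Of 16517 genes tested, 57 passed (0.345%) in the edgeR quasi-likelihood test at a Benjamini-Hochberg adjusted p under 0.05, 28 higher (0.17%) and 29 lower (0.176%). Of these, 54 reached 5 CPM; their median change was 0.24 in size on the log2 scale, 0 reached 2-fold and 1, PFKFB3, reached 1.5-fold. In 45 of the 57, all 9 Liriopis libraries lay beyond all 3 vehicle libraries, which held for 3.46% of all genes tested. In bulk RNA, fewer cells of a kind and less RNA per cell cannot be told apart.

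The calls rested on the small vehicle group. Without vehicle replicate 1 the test called 0 genes, with 1266 at an unadjusted p under 0.05 and a smallest adjusted p of 0.122 (2248 genes, 13.6%, had an unadjusted p under 0.05 with all libraries). The 54 genes above 5 CPM kept their sign without that library, with a median size of 0.21. The count was 24 without vehicle replicate 2, 19 without vehicle replicate 3, 33 without high-dose replicate 2, 18 without medium-dose replicate 2, 35 without medium-dose replicate 3, 24 without low-dose replicate 3, 43 (15 of them higher) without low-dose replicate 2 and 195 without low-dose replicate 1. DESeq2 called 169 genes, 46 of them among the 57. Median GC content of the longest transcript was 54.5% for genes called higher and 47.85% for genes called lower, beside 48.93% over all genes tested. Vehicle replicate 1 was also the vehicle library with the outlying GC slope (−0.124). Whether the GC slope of the libraries had a part in the calls was not tested.

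PFKFB3 (chr10:6144934-6254644, plus strand, GRCh38), an enzyme that makes fructose 2,6-bisphosphate, rose most. It stood at 6.15, 5.30 and 6.27 CPM at the low dose, 5.26, 5.61 and 5.90 CPM at the medium dose and 6.66, 6.20 and 5.39 CPM at the high dose, against 2.60, 3.96 and 3.88 CPM in vehicle cells. All Liriopis libraries were above all vehicle libraries, and the lowest vehicle value was that of replicate 1. The log2 fold change was 0.76 ± 0.17 (SE; adjusted p = 0.0240); it was 0.58 and did not pass without vehicle replicate 1, and 0.85 and did not pass without vehicle replicate 3.

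PFKFB4 (chr3:48517684-48562015, minus strand), a second enzyme of this kind, was measured together with UCN2, which overlaps it on the same strand, so how reads were split is uncertain. It had 23.2, 22.7 and 23.8 CPM at the low dose, 18.3, 22.6 and 24.5 CPM at the medium dose and 22.3, 23.9 and 19.3 CPM at the high dose, against 14.2, 13.8 and 16.8 CPM in vehicle cells. The groups did not overlap, and PFKFB4 rose by 0.58 ± 0.11 (SE; adjusted p = 0.0157), a call lost without vehicle replicate 1 (0.54) or 2 (0.52).

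PDK1 (chr2:172555373-172608669, plus strand) switches off pyruvate dehydrogenase and so slows the conversion of pyruvate to acetyl-CoA. It had 26.4 to 33.3 CPM in the 9 Liriopis libraries (median 29.3) against 24.9, 21.8 and 23.9 CPM in vehicle cells. The antisense gene PDK1-AS1 lies opposite it, and the strand setting of the counting is not given. PDK1 rose by 0.32 ± 0.07 (SE; adjusted p = 0.0240), and its call was lost without any one vehicle library (0.265 to 0.365) and without medium-dose replicate 2 (0.32).

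KDM3A (chr2:86440647-86492716, plus strand), a demethylase of histone H3 lysine 9 that low oxygen induces, had the smallest p of all genes. Its Liriopis libraries lay at 57.6, 50.7 and 52.0 CPM at the low dose, 48.7, 50.5 and 50.6 CPM at the medium dose and 54.3, 54.0 and 52.4 CPM at the high dose, and the vehicle libraries at 40.03, 41.43 and 46.56 CPM. No Liriopis value fell among the vehicle values. The rise was 0.29 ± 0.05 (SE; adjusted p = 0.00162), and the call was lost without vehicle replicate 1 (0.25) and in none of the 11 other fits that leave out a library.

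**Figure D1:**
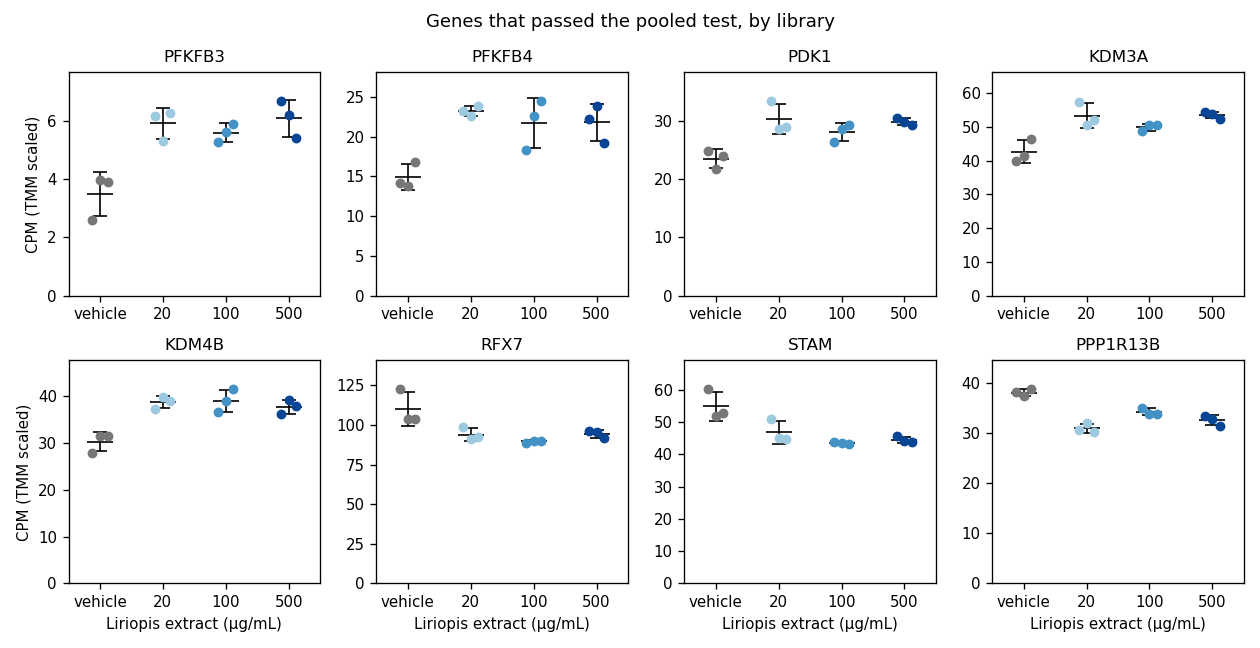
CPM after TMM scaling of 8 called genes in the 3 vehicle libraries and the 3 libraries of each Liriopis dose (20, 100 and 500 µg/mL); points are libraries, bars the mean and SD. In all 8 genes the Liriopis points lie on 1 side of the vehicle points at every dose.

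Of 17 hypoxia targets tested, 2 passed (PDK1 and KDM3A), beside 0.17% of all genes called higher. Values were positive for 14, and the median was 0.19, beside 0.00 over all genes. All 9 Liriopis libraries lay above all 3 vehicle libraries for 4 members, beside 1.52% of all genes. Another 2 had all 9 Liriopis libraries above the vehicle without passing: NDRG1, a stress-response gene, with 43.0 to 50.2 CPM against 36.2, 33.0 and 41.3 CPM in vehicle cells (0.35, adjusted p = 0.0519), and INSIG2, which restrains cholesterol synthesis, with 34.0 to 40.9 CPM against 32.9, 29.9 and 29.97 CPM (0.25, adjusted p = 0.0554). VEGFA, the vascular growth factor, overlapped between groups (0.07, adjusted p = 0.463), and so did CA9, a carbonic anhydrase at 1.44 to 3.31 CPM against 0.919, 0.753 and 2.01 CPM in vehicle cells (0.67, adjusted p = 0.440). The list's median was 0.19 without vehicle replicate 1, when 0 members passed; 1 passed without vehicle replicate 2, vehicle replicate 3 or medium-dose replicate 2. Against the other extracts, without the vehicle, all 17 members had negative values (median −0.08). Of them 4 were lower in Liriopis, beside 3.71% of all genes tested. That count was 3 with Schisandrae, 3 with Aucklandiae, 5 with Polygalae, 6 with Zizyphi and 8 with Longan left out. It was 0 with the low doses alone and 9 against Schisandrae alone.

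The glycolysis list of 17 had 2 members that passed, PFKFB3 and PFKFB4, beside 0.17% of all genes called higher. Its median was 0.11. The next by p were ENO1 (0.18), PGK1 (0.17) and GPI (0.11), enzymes of the pathway itself, none of which passed. LDHA, which makes lactate, had a value of 0.00, and GAPDH −0.04. Among 18 genes of gluconeogenesis and insulin-repressed FOXO targets 0 passed in the edgeR test (2 at an unadjusted p under 0.05). IGFBP1, a secreted binder of insulin-like growth factors, had 28.5 to 45.1 CPM in Liriopis libraries against 22.1, 22.4 and 27.3 CPM in vehicle libraries, without overlap (0.63 ± 0.16, SE; adjusted p = 0.0554). PCK1, the rate-limiting enzyme of gluconeogenesis, had 2.58 to 3.45 CPM against 1.96, 2.31 and 2.01 CPM in vehicle cells (0.52 ± 0.14, SE; adjusted p = 0.0719).

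The remaining rises named by the rule were PTPRH, a receptor tyrosine phosphatase (0.38), KDM4B, a histone demethylase (0.34), TUBGCP6 of the gamma-tubulin ring (0.32), ANKZF1, which frees stalled peptides from ribosomes (0.30), L3MBTL4 (0.29) and APOL2 (0.28). ANKZF1 is overlapped on the other strand by GLB1L and L3MBTL4 by AP001021.1. A transcript without a protein product, AL355987.4, had a value of 0.51, but it shares its place with CCDC183, RABL6 and others and is uncertain. Transferrin (TF), the iron carrier of plasma, rose by 0.16 ± 0.04 (SE; adjusted p = 0.0469), with 1985 to 2096 CPM in Liriopis libraries and 1734, 1825 and 1892 CPM in vehicle libraries. Transferrin overlaps SRPRB and INHCAP on its strand, and its call was kept in 1 of the 12 fits that leave out a library. KDM4B, PTPRH and APOL2 were each kept in 4 of the 12, TUBGCP6 in 7, L3MBTL4 in 5 and ANKZF1 in 2; all 6 and transferrin were lost without vehicle replicate 1.

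RFX7, a transcription factor, had 88.6 to 98.4 CPM in the 9 Liriopis libraries (median 91.5) against 122, 104 and 104 CPM in vehicle cells. The highest vehicle value was again replicate 1, but the other vehicle libraries also lay above all Liriopis libraries. RFX7 fell by 0.25 ± 0.05 on the log2 scale (SE; adjusted p = 0.00776). PPP1R13B, also called ASPP1, had 30.24 to 35.03 CPM in Liriopis cells and 38.2, 37.3 and 38.6 CPM in vehicle cells, and fell by 0.23 ± 0.04 (SE; adjusted p = 0.00640). ZFYVE21 lies on its opposite strand. STAM had 43.1 to 50.8 CPM against 60.1, 51.8 and 52.8 CPM, and fell by 0.29 ± 0.06 (SE; adjusted p = 0.0210). These 3 calls were kept in 11 of the 12 fits that leave out a library, all but the one without vehicle replicate 1.

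The other falls named by the rule were EFCAB2 (−0.33), ATXN2, an RNA-binding protein (−0.23), ZBED3 (−0.31), TNS4, an adhesion protein (−0.30), MAPK1IP1L (−0.26), STIM2, which senses calcium in the endoplasmic reticulum (−0.25), SOBP (−0.24) and ALG13, which acts in N-glycosylation (−0.23). SNRPA1-DT had −0.38, but it overlaps PCSK6 on the other strand and is uncertain. EFCAB2, ZBED3, STAM and ATXN2 also have a gene on the other strand. WDR43, which acts in ribosome biogenesis, was the only called member of that list of 21, with 152.4 to 179.7 CPM in Liriopis libraries and 193, 187 and 172 CPM in vehicle libraries. The groups overlapped through low-dose replicate 1 and vehicle replicate 3, and WDR43 fell by 0.18 ± 0.04 (SE; adjusted p = 0.0234). STIM2 was kept in 10 of the 12 fits that leave out a library, TNS4 and WDR43 in 9, SOBP in 8, EFCAB2 in 7, ZBED3 in 6, ATXN2 in 5, MAPK1IP1L in 4, and ALG13 and SNRPA1-DT in 3, and none without vehicle replicate 1.

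**Figure D2:**
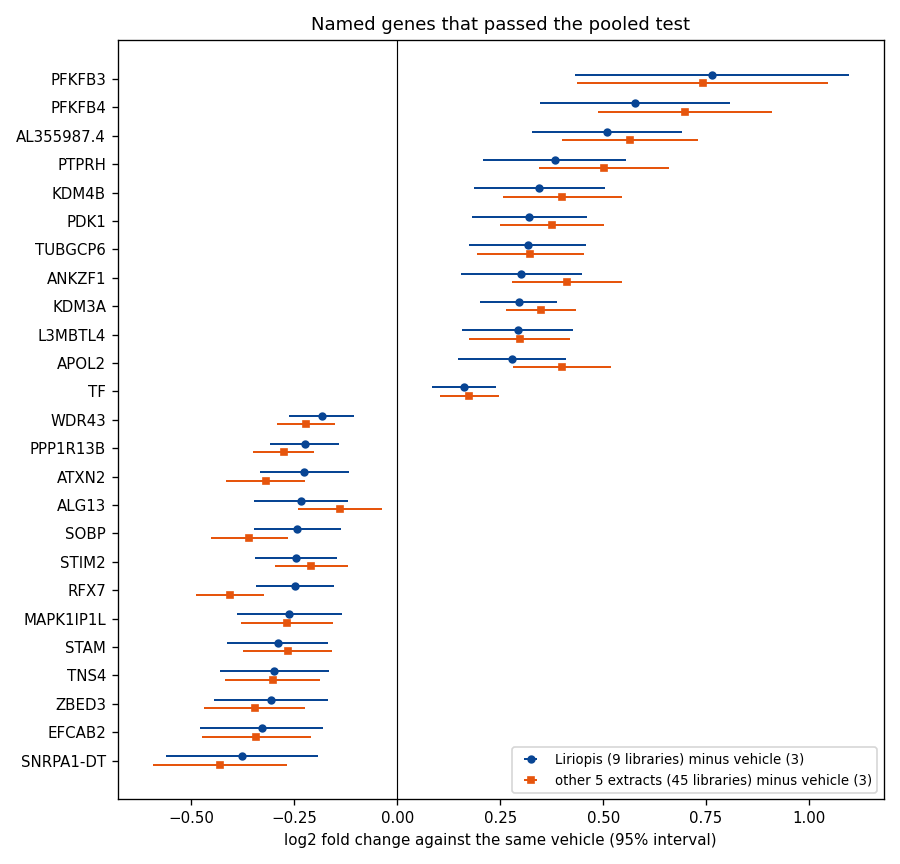
Log2 fold change with its 95% interval of the named genes that passed, for Liriopis against the vehicle (blue circles) and for the mean of the 15 groups of the other extracts against the same vehicle (orange squares). PFKFB3 stands furthest right (0.76 and 0.74), and RFX7 stands at −0.25 and −0.41.

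Both comparisons in the plot of named genes share the 3 vehicle libraries, so their likeness is no second observation. Side by side, PFKFB3 stood at 0.76 for Liriopis and 0.74 for the other extracts against the vehicle, PFKFB4 at 0.58 and 0.70, PDK1 at 0.32 and 0.38, and KDM3A at 0.29 and 0.35. For these genes and KDM4B, 15 of the 15 group means of the other extracts lay above the vehicle mean. For RFX7, STAM, PPP1R13B and STIM2, 0 of 15 did. The direct difference between Liriopis and the other extracts, which uses no vehicle library, was 0.02 for PFKFB3 (95% interval −0.14 to 0.18, adjusted p = 0.918) and −0.05 for KDM3A (−0.104 to −0.00434, adjusted p = 0.191). Neither passed the test, and differences of the sizes in these intervals remain possible. Of the 25 named genes that passed against the vehicle, 4 also differed directly from the other extracts, beside 7.62% of all genes tested. RFX7 (0.16, adjusted p = 3.97e-05), SOBP (0.12, adjusted p = 0.00773) and ATXN2 (0.09, adjusted p = 0.0416) were higher in Liriopis and APOL2 (−0.12, adjusted p = 0.0205) lower.

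Across the 36 gene lists, 30 had no called member against the vehicle, and 7 of 537 list members passed, beside 0.345% of all genes tested. The NRF2 list (19 tested, median 0.01), the cholesterol list (24, 0.02), the G2 and M phase list (20, −0.01) and the ER chaperones (16, −0.04) each had 0 that passed. NQO1, a quinone reductase induced by NRF2, had 343 to 373 CPM in Liriopis libraries against 333, 343 and 345 CPM in vehicle libraries (0.08, adjusted p = 0.335). HMOX1 (0.01), TXNIP (−0.02) and ALB (0.08) overlapped between the groups, and none passed.

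The 13 mRNAs encoded in mitochondrial DNA all had negative values (median −0.40), and 0 passed (13 at an unadjusted p under 0.05). Their share of counts was 9.56% to 12.5% in Liriopis libraries and 13.0% to 16.1% in vehicle libraries. MT-CO1, a subunit of cytochrome oxidase, had 18130 to 23320 CPM in Liriopis libraries against 32360, 24340 and 25250 CPM in vehicle libraries. Vehicle replicate 1 again held the highest value; without it the median was −0.26 and 1 of 13 had an unadjusted p under 0.05. With GC slope and structured RNA share as covariates the median was −0.16. With no filter on low counts all 13 passed, and 1 did with the 12 libraries and 1 Liriopis term. The 22 nuclear genes for respiratory chain subunits had a median of 0.06.

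No gene showed a change with dose that passed the test. High against low dose gave 0 calls (0.0%) of 16517, with a smallest adjusted p of 0.757 and 806 genes (4.88%) at an unadjusted p under 0.05; DESeq2 also called 0. A test of any difference among the 3 doses called 0 (smallest adjusted p = 0.348; 994 unadjusted). All 57 genes called against the vehicle had the same sign at each dose, which follows largely from their choice on the mean of the 3 doses against 1 shared vehicle group. Among the 54 above 5 CPM the high minus low difference ran from −0.17 to 0.18. Of the 57, 7 had an unadjusted p under 0.05 for any difference among doses and 4 for high minus low (MAT1A 0.18, NARF 0.11, GMCL1 0.09 and DHRS3 −0.14), and 0 passed after adjustment. Over 10685 genes of 5 CPM or more, the 95% interval of high minus low reached a median of 0.154 to either side. That interval is not adjusted over genes, and larger differences than it also did not pass.

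Set against the vehicle singly, the doses gave 5 calls for the low dose (0.0303%), 5 for the medium dose (0.0303%) and 8 for the high dose (0.0484%). KDM3A passed at the low (0.33) and high (0.33) dose. MAT1A, the liver form of methionine adenosyltransferase, passed at the high dose. It had 117, 126 and 127 CPM in vehicle cells, 132, 131 and 133 CPM at the low dose, 138, 142 and 141 CPM at the medium dose and 145, 158 and 145 CPM at the high dose. Its means ran in the order of dose, and high minus low was 0.18 (unadjusted p = 0.000447, adjusted p = 0.789). DHRS3, a retinaldehyde reductase, passed at the low (0.32) and medium (0.29) dose. RNF4, a ubiquitin ligase for SUMO-bearing proteins (−0.22), PPP1R13B (−0.30) and TIA1, an RNA-binding protein of stress granules (0.21), passed at the low dose, and IKBKB, a kinase of NF-kB signalling (0.33), and RFX7 (−0.30) at the medium dose. The other high-dose calls were UNC93B1 (0.43), GMCL1 (0.24), SLC5A9 (0.24), NARF (0.25), AL355987.4 (0.53) and MT1X (−0.66). UNC93B1 means also ran in the order of dose (high minus low 0.30, unadjusted p = 0.00155, adjusted p = 0.814). The other medium-dose calls were AL355987.4 (0.53) and ZNF468 (−0.32), which overlaps ZNF28 and ZNF320 on its strand. Calls by dose were kept in 4 (TIA1) to 11 (PPP1R13B) of the 12 fits that leave out a library. All are named because they were few, after their values were seen. Low-dose calls numbered 1 without low-dose replicate 3, 2 without vehicle replicate 1, 8 without medium-dose replicate 1 and 13 without low-dose replicate 1. Medium-dose calls numbered 0 without medium-dose replicate 2 or 3 or vehicle replicate 1, and 10 without low-dose replicate 1. High-dose calls numbered 0 without high-dose replicate 2, 1 without vehicle replicate 1, 3 without vehicle replicate 2 and 4 each without high-dose replicate 1, high-dose replicate 3 and vehicle replicate 3.

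Summed metallothionein levels were lowest at the high dose, with Liriopis as with each of the other 5 extracts. MT1X, which had the smallest trend p among genes of 5 CPM or more, stood at 34.4, 31.5 and 34.3 CPM in vehicle cells, 25.1, 32.4 and 34.3 CPM at the low dose, 28.5, 28.0 and 27.9 CPM at the medium dose and 23.9, 17.7 and 21.9 CPM at the high dose. All 3 high-dose values were below all other values. Against the vehicle the high dose passed (−0.66 ± 0.13, SE; adjusted p = 0.0310), and high minus low did not (−0.53, unadjusted p = 0.000244, adjusted p = 0.789). The high-dose call was lost without high-dose replicate 2, high-dose replicate 3 or any one vehicle library, with values of −0.76 to −0.54.

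MT2A, the most abundant of the family here, had 208, 185 and 196 CPM in vehicle cells, 128, 187 and 191 CPM at the low dose, 208, 147 and 153 CPM at the medium dose and 111, 73.6 and 129 CPM at the high dose. The low and high doses overlapped through low-dose replicate 1. High minus low was −0.69 for MT2A, −0.61 for MT1E, −0.62 for MT1G and −0.60 for MT1F, and none passed. The summed level of 7 metallothionein genes was 409 ± 13.4 CPM in vehicle cells, 368 ± 67.7 CPM at the low, 350 ± 51.8 CPM at the medium and 236 ± 58.2 CPM at the high dose (SD, n = 3 each). The means of each of the other 5 extracts also fell in the order of dose. From low to high dose they ran from 286 to 79.9 CPM with Schisandrae, 341 to 126 with Aucklandiae, 346 to 189 with Polygalae, 366 to 259 with Zizyphi and 401 to 332 with Longan. Over the list of 11 metallothioneins and zinc transporters the median of high minus low was −0.60, beside −0.01 over all genes; 0 passed in edgeR, and 7 were lower at an unadjusted p under 0.05. Without high-dose replicate 2 the median was −0.41 and 3 were lower at an unadjusted p under 0.05, and with no filter on low counts 5 passed. The zinc exporter SLC30A1 (−0.12) and its relative SLC30A10, a manganese exporter (0.03), did not pass. These genes are near-identical copies, so how reads were split among them is uncertain, and MT1X overlaps AC026461.1 on its strand.

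**Figure D3:**
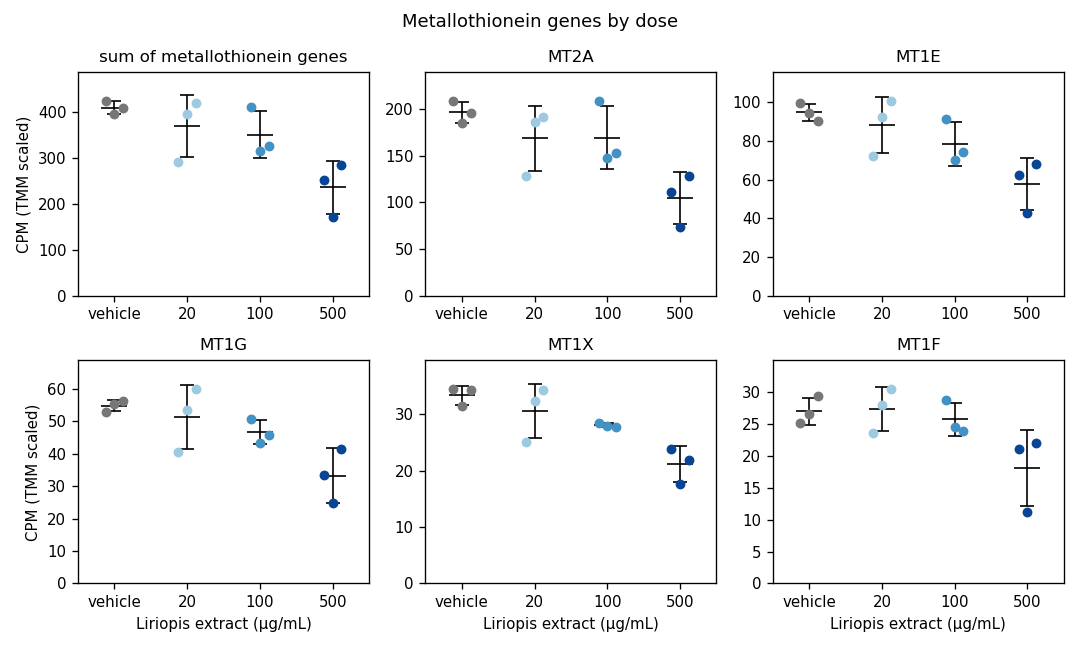
CPM after TMM scaling of the sum of 7 metallothionein genes and of 5 of them, in vehicle libraries and at 20, 100 and 500 µg/mL Liriopis extract; points are libraries, bars the mean and SD. In the sum the high-dose points lie lowest, at 171 to 284 CPM against 396 to 423 CPM in vehicle cells. In MT2A they overlap those of the low dose.

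CYP1A1, the aryl hydrocarbon receptor target, had 7.151, 7.203 and 7.24 CPM in vehicle cells, 6.64, 7.32 and 5.97 CPM at the low dose, 5.84, 6.08 and 6.75 CPM at the medium dose and 9.29, 8.71 and 7.81 CPM at the high dose. The high-dose values were the highest of the 12, but the pooled value was −0.02 and high minus low 0.37 ± 0.10 (SE; unadjusted p = 0.000568, adjusted p = 0.789). ASNS, which makes asparagine, had 23.4, 22.4 and 24.5 CPM at the high dose and 29.1, 26.4 and 27.8 CPM at the low dose (−0.25, unadjusted p = 0.000564, adjusted p = 0.789). It is named for its small p, after its values were seen.

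Against the mean of the other 5 extracts, Liriopis-treated cells had lower levels of NRF2 targets, lysosomal and glycolytic genes. Mitotic genes and metallothioneins were higher. A few extracts can move that mean, and of the other 5 extracts only Schisandrae was compared singly. The p-values measure the spread within groups and not the spread among extracts. This comparison with the other extracts uses no vehicle library. Of 16517 genes, 1259 passed (7.62%), 647 higher (3.92%) and 612 lower (3.71%) in Liriopis, and 0 of those with 5 CPM reached 2-fold. The count stayed between 883 and 1241 when any one Liriopis or vehicle library was left out. It was 789 when Aucklandiae was left out of the other extracts and 7 when only the low doses were compared, 3 Liriopis libraries against 15; both alternatives were chosen after the data were seen. So was the comparison with Schisandrae alone, the extract of the same code set, which called 946 genes (5.73%). Members named from here on were taken by their p after the values were seen.

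Of 19 NRF2 targets, 16 were lower (median −0.23, beside 0.00 over all genes). AKR1B10, an aldo-keto reductase, had the smallest p of all genes: 39.8 to 48.5 CPM in Liriopis libraries, and means of 69.2 ± 31.2 CPM with Schisandrae, 45.6 ± 4.21 with Longan, 43.5 ± 2.73 with Zizyphi, 73.3 ± 28.7 with Polygalae and 134 ± 73.2 with Aucklandiae (SD, n = 9 each). Its difference was −0.57 ± 0.03 (SE; adjusted p = 2.05e-22). The Liriopis range overlapped those of Schisandrae, Longan and Zizyphi; the Polygalae libraries (48.6 to 117 CPM) and the Aucklandiae libraries (63.4 to 229 CPM) lay above it. In vehicle cells AKR1B10 averaged 38.1 ± 3.01 CPM (SD, n = 3). NQO1 differed by −0.24 ± 0.02 (SE; adjusted p = 2.81e-12), with a mean of 359 ± 9.81 CPM for Liriopis and 565 ± 104 CPM for Aucklandiae (SD, n = 9 each). The lowest NQO1 group mean among the other extracts was 350.8 CPM, at the low dose of Schisandrae. SRXN1, which repairs oxidised peroxiredoxin, differed by −0.25 (adjusted p = 1.39e-10), and PGD of the pentose phosphate pathway (−0.01) did not pass. With Aucklandiae left out 9 of the 19 were lower, and with the low doses alone 0 were (median −0.07). Against Schisandrae alone 10 were lower (median −0.08), with AKR1B10 at −0.57 (adjusted p = 7.10e-19) and NQO1 at −0.17 (adjusted p = 3.51e-06).

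Of 22 lysosome and autophagy genes, 13 were lower (median −0.10). SQSTM1, the autophagy receptor p62 and itself an NRF2 target, led the list at 183 to 213 CPM in Liriopis libraries and a mean of 379 ± 65.9 CPM with Polygalae (SD, n = 9); its difference from all other extracts was −0.37 ± 0.02 (SE; adjusted p = 1.10e-20). Of 17 glycolysis genes 10 were lower (median −0.10), among them ALDOA (−0.15) and PGK1 (−0.13), and the glucose transporter SLC2A1 differed by −0.12 (adjusted p = 6.53e-06). Ferritin chains FTH1 (−0.28) and FTL (−0.22) were among 5 of 13 iron and heme genes that were lower, and EGR1 (−0.33) among 5 of 18 immediate early genes. With the low doses alone, 1 lysosome gene and 0 of these other lists passed. The lysosome count was 7 with Polygalae left out, the iron and heme count 1 with Aucklandiae left out, and the immediate early count 2 with Schisandrae and 3 with Polygalae left out. Against Schisandrae alone 4 lysosome, 12 glycolysis, 2 iron and heme and 13 immediate early genes were lower, with SQSTM1 at −0.32 (adjusted p = 7.14e-15). IGFBP1 (−0.63, adjusted p = 4.91e-07) and CYP1A1 (−0.51, adjusted p = 1.45e-11) were also lower in Liriopis-treated cells. IGFBP1 averaged 37.2 ± 5.14 CPM with Liriopis and 107 ± 79.3 CPM with Schisandrae, and CYP1A1 7.16 ± 1.23 CPM with Liriopis and 27.0 ± 26.4 CPM with Polygalae (SD, n = 9 each). The lowest group means among the other extracts were 35.6 CPM for IGFBP1 (Longan medium dose) and 6.52 CPM for CYP1A1 (Longan low dose).

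Of 20 genes of the G2 and M phases, 16 were higher in Liriopis (median 0.12). MKI67, the proliferation marker Ki-67, averaged 598 ± 29.8 CPM with Liriopis and between 478 ± 88.3 CPM (Aucklandiae) and 549 ± 48.2 CPM (Schisandrae) with the other extracts (SD, n = 9 each), a difference of 0.23 ± 0.04 (SE; adjusted p = 1.26e-05); vehicle cells averaged 631 ± 28.3 CPM (SD, n = 3). PLK1, a mitotic kinase, was higher by 0.16 ± 0.02 (SE; adjusted p = 1.78e-05) and TOP2A, a topoisomerase, by 0.18 ± 0.02 (SE; adjusted p = 9.00e-08). CDK1 (0.01) did not pass. Leaving out 1 other extract left 14 to 18 of the 20 higher, and the low doses alone gave 0, with a median of 0.08. Against Schisandrae alone 2 of the 20 were higher (median 0.08). TOP2A passed there (0.09, adjusted p = 0.0424), and MKI67 (0.13, adjusted p = 0.107) and PLK1 (0.08, adjusted p = 0.163) did not.

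Metallothioneins and zinc transporters had 6 of 11 higher (median 0.25) and 1, SLC39A10, a zinc importer, lower (−0.17). MT1X averaged 26.6 ± 5.13 CPM with Liriopis and 14.7 ± 8.06 CPM with Schisandrae (SD, n = 9 each), and differed from all other extracts by 0.35 ± 0.06 (SE; adjusted p = 7.196e-05). With Schisandrae left out 1 member was higher and with the low doses alone 0. Against Schisandrae alone 8 were higher, with MT1X at 1.07 (adjusted p = 8.30e-14). Hepatocyte transcription factors had 6 of 18 higher, FOXA3 (0.19) and NR1H4, the bile acid receptor (0.14), among them; heat shock chaperones had 6 of 16, with HSPA1A, which has a near-identical copy, at 0.24; and ER chaperones 5 of 16, with HSPA5 at 0.11. With Polygalae left out, 0 ER and 3 heat shock chaperones were higher, and with Aucklandiae left out 2 hepatocyte transcription factors were. With the low doses alone 0 of these factors and 0 heat shock chaperones were higher. Against Schisandrae alone 5 of these factors, 2 heat shock and 0 ER chaperones were higher, and FOXA3 (0.06, adjusted p = 0.613) and HSPA5 (0.01, adjusted p = 0.890) did not pass. The mitochondrially encoded mRNAs did not differ beyond the spread (median 0.00, 0 of 13 passed in the edgeR test, 0 at an unadjusted p under 0.05).

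**Figure D4:**
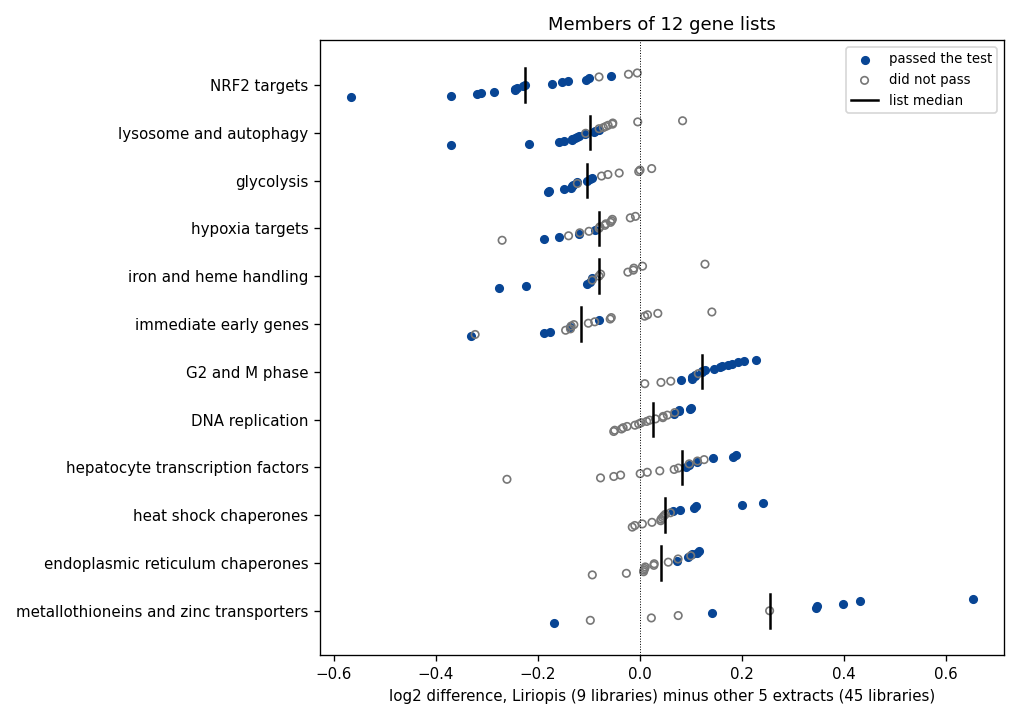
Log2 difference between Liriopis (9 libraries) and the other 5 extracts (45 libraries) for the members of 12 of the 36 lists; each point is a gene, filled where it passed the test, and black lines are list medians. NRF2 targets lie lowest as a list (median −0.23), and the G2 and M phase genes all lie above 0 (median 0.12).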

How the data were processed

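Per the labels' protocols, mRNA libraries were made with a strand-keeping kit and sequenced in 100 bp pairs; the design text says libraries that failed for low RNA were excluded. The authors deposited expected counts per gene (10.32% not whole) for 60675 genes, of which 57055 were matched to symbols and coordinates in GENCODE 29. STAR 2.7.3a and RSEM 1.3.3 with GRCh38, after Trim Galore 0.6.5 and FastQC 0.11.9, are listed in the submitters' processing notes; the annotation release and the strand setting were not given in the sources used here. Expected counts were rounded, filtered with filterByExpr (16517 genes) and scaled by TMM. An edgeR 4.0.16 quasi-likelihood model (R 4.3.3, limma 3.58.1) with 20 group terms was fitted to all 60 libraries. Contrasts were the mean of the 3 Liriopis doses minus vehicle, each dose minus vehicle, high minus low, and the Liriopis mean minus the mean of 15 other extract groups, 2-sided, Benjamini-Hochberg adjusted at 0.05. CPM are TMM-scaled.

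The labels do not say that replicates were separate cultures, so p-values cover only the spread among these libraries, possibly technical. No libraries were duplicates. The genes, lists and tests were chosen with earlier results of these data known. Named genes are the 12 largest rises and 12 largest falls among genes that passed with at least 5 CPM and no overlap between the 9 and 3 libraries, called list members (up to 3 a list), and 17 fixed genes; others are marked in the text, and some genes that this rule selects are not reported here. The fits were tested on simulated counts. Intervals are at 95%. Alternatives were RLE scaling, no filter, a stricter filter (1 CPM in 30 libraries), DESeq2 1.42.0, the 12 libraries alone, replicate blocks, GC slope and structured RNA covariates, and leaving out libraries; low doses alone, leaving out each other extract and Schisandrae alone were added after the data were seen.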

Additional observations from a re-analysis of the deposited data

Results flagged for a closer look

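Among 53 values examined over the 9 Liriopis libraries, 9 had a library far from the others by Dixon's criterion; chance flags about 1 in 20 groups. Low-dose replicate 1 was the outlying library in 5 of the 9. It was high for STAM (50.8 CPM), HMGCS1 (398.5 CPM) and SLC30A1 (108.8 CPM), and low for TRIB3 (137.5 CPM) and for its GC slope (−0.1614 log2 per 10 percentage points of GC). Low-dose replicate 2 was high for SOBP (36.9 CPM). High-dose replicate 2 was low for MT1F (11.2 CPM) and TXNIP (35.4 CPM), and high-dose replicate 3 was high for ALB (7514 CPM).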

How the results depend on the processing

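Counts of genes against the vehicle depended on the setting. Leaving out 1 library gave 0 to 96 genes higher and 0 to 99 lower, 1 to 13 called for the low, 0 to 10 for the medium and 0 to 10 for the high dose, 0 to 0 for high against low, and 883 to 1241 against the other extracts. Genes higher and lower numbered 7 and 5 with the 12 libraries alone, 8 and 5 with 1 Liriopis term, 86 and 83 in DESeq2, 224 and 300 with no filter, and 0 and 0 with vehicle replicate 1 and low-dose replicate 1 both left out. Calls by dose (low, medium, high) were 1, 0 and 0 with the 12 libraries alone, 40, 15 and 46 in DESeq2, 260, 292 and 515 with no filter, 9, 8 and 15 with the stricter filter, and 0, 0 and 2 with both libraries left out. GC slope and structured RNA covariates gave 0 for the medium and 62 for the high dose; of the 52 pooled calls then made, 26 were among the 57. Without a filter high against low called 125. Against the other extracts, low doses alone gave 7 and leaving out Aucklandiae 789, alternatives chosen after the data were seen. The cause of these shifts was not tested.

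The labels do not say what a replicate number shares, so the ground for a replicate block is uncertain. Same-numbered deviations correlated at −0.07 to 0.17 and differently numbered ones at −0.15 to 0.14, which does not settle it. The highest value was that of low-dose replicate 1 with vehicle replicate 1. With the replicate block within code set, 112 genes were higher and 118 lower, and 23, 22 and 40 were called for the low, medium and high dose. With the replicate block over the 12 libraries 52 were higher, 3, 1 and 3 were called by dose, and 3 of the 13 mitochondrially encoded mRNAs passed.

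Reversals were limited to values near 0. HMOX1 pooled was −0.0029 with GC covariates and −0.026 with both libraries left out, and −0.046 to 0.044 with 1 library left out. TXNIP was 0.012 with GC covariates and −0.038 to 0.0041 with 1 library left out. High minus low for SLC30A1 was 0.029 with both left out and −0.185 to 0.0293 with 1 left out, and for SLC30A10 −0.035 to 0.093.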
